A study of Mus musculus with 24 samples.

Results

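Livers of DNA-repair-deficient Ercc1 d/- mice were compared with livers of Ercc1 +/+ mice, both taken at 16 weeks of age after a period of 30% dietary restriction. The libraries were chosen by their labelled genotype, diet and age, which gave 4 restricted mutants and 4 restricted wild types, 8 of the 24 libraries in the series. Each library held ribosome-protected fragments (footprints, the stretches of mRNA covered by a ribosome) from liver, so that the count of a gene reflects both its mRNA and how often that mRNA was being translated. All animals were males of an F1 hybrid of C57BL6J and FVBN, they were housed singly, and the labels name no transgene or Cre. Restriction began at week 7 with 10% less food and reached 30% from week 9 onward. This meant 1.6 g of food per day for restricted mutants and 2.1 g per day for restricted wild types, against 2.3 g for fed mutants and 3.0 g for fed wild types. Food came just before the dark period, and none was given before collection on the last day. The fed mutants and fed wild types of 16 weeks, 4 libraries each, share no library with the restricted groups and are given beside them where a difference between diets was tested.

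ERCC1 and its partner XPF (gene Ercc4) form an endonuclease that cuts damaged DNA in nucleotide excision repair, interstrand crosslink repair and some double-strand break repair. Mice with a null and a truncated Ercc1 allele age early, and dietary restriction is known to extend their lifespan. Liver is among the organs known to be affected, with enlarged and polyploid hepatocyte nuclei and a lowered growth hormone and IGF-1 axis.

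Total counts ranged from 13423941 to 26075881 per library in restricted mutants and from 17417171 to 27084259 in restricted wild types. Albumin, the main secreted product of hepatocytes, took 15.5% ± 1.59 of counts in mutants and 16.4% ± 1.84 in wild types (SD, n = 4 each), and the hepatocyte markers were high in every library. In a principal component analysis of the 8 libraries, the first component (35.2% of the variance) separated the genotypes. The second (20.4%) set wild-type replicate 4, at 51, apart from the other wild types, which lay between -36.4 and -10. It also split the mutants, with replicates 1 and 2 at 14.5 and 30.8 and replicates 3 and 4 at -17.2 and -16.2. The labels number the samples of a group and say nothing further of their source. P-values measure a spread between samples that was estimated over all 24 libraries, not over the 8 compared ones alone. Squared differences between replicates were 78.52 to 215.8 times counting noise per gene in restricted wild types, and 25.42 to 92.56 times in restricted mutants. A fit of the 8 libraries alone, given below, passed fewer genes. Values in each library are given below in the order of replicates 1 to 4, as CPM, read counts scaled to the same normalised library size. CPM values are not divided by gene length and are compared between groups of the same gene only.

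The targeted gene came first as a check of the labels. Ercc1 (chr7:19344067-19356524 in GRCm38.p6) had 13, 9, 13 and 4 footprints in restricted mutants, against 85, 40, 110 and 34 in restricted wild types. As CPM these were 0.614, 0.425, 0.442 and 0.278 in mutants and 2.78, 2.16, 4.86 and 2.06 in wild types, and the groups did not overlap. The log2 difference was -2.72 ± 0.41 (SE, adjusted p = 5.36e-05 by edgeR's quasi-likelihood test with Benjamini-Hochberg adjustment, which gives all adjusted p-values below). Ercc4, which encodes the partner XPF, had 6.52 to 7.71 CPM in mutants and 4.46 to 7.34 CPM in wild types, and its difference did not pass the test (log2 0.27 ± 0.18, adjusted p = 0.325). Among 29 tested genes of nucleotide excision repair and of ERCC1's partners, 5 rose and 3, Ercc1 included, fell (27.6%, against 18.2% of all tested genes). Ercc3, a helicase of TFIIH, averaged 0.67 higher on the log2 scale (adjusted p = 0.000662), and Ercc5, the nuclease XPG, 0.93 higher (adjusted p = 0.0102). Ercc2, the other TFIIH helicase, fell by 0.72 (adjusted p = 0.0113), and without wild-type replicate 1 its adjusted p was 0.0502.

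Of 12211 tested genes, 2227 (18.2%) passed an adjusted p of 0.05. In restricted mutants 1146 genes (9.38%) rose and 1081 (8.85%) fell, with 561 rises (4.59%) and 350 falls (2.87%) of over 2-fold. Every mutant library lay above every wild-type library for 1015 genes (8.31%) and below for 839 (6.87%). The median difference over all tested genes was -0.01. When libraries were scaled by their totals alone, this median became 0.11 and the 2055 genes that passed were split into 1414 higher and 641 lower (68.8% higher, against 51.5% in the main fit), so the balance of directions moved with the scaling. Fitting the 8 libraries alone, without the spread shared by the other groups, left 769 genes, and requiring a difference shown to exceed 1.5-fold left 437.

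The largest rises were in genes that restricted wild-type livers hardly translated. Gpx6, a glutathione peroxidase, had 27.4, 35.1, 31.9 and 29.8 CPM in mutants, against 0.164, 0.487, 0.574 and 0.606 CPM in wild types (70.5-fold, log2 6.14 ± 0.36, adjusted p = 1.4e-11). Afp, the albumin-family protein of fetal liver, had 11.1, 24.1, 16.7 and 27.8 CPM in mutants, against 0.524, 0.216, 0.795 and 0 CPM in wild types (log2 5.55 ± 0.47, adjusted p = 2.42e-08). Both were also higher in fed mutants than in fed wild types, at 7.68 ± 3.08 against 0.199 ± 0.182 CPM for Gpx6 and 7.26 ± 1.81 against 0.557 ± 0.255 CPM for Afp (SD, n = 4 each). For neither gene did the genotype difference under restriction differ from the fed one past the threshold (adjusted p = 0.481 and 0.24).

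Sult1e1, the estrogen sulfotransferase, had 108, 77.6, 45.6 and 96.1 CPM in restricted mutants and 0.687, 0.433, 7.24 and 2.61 CPM in restricted wild types. Its difference was 4.90 ± 0.68 on the log2 scale (adjusted p = 6.11e-05), and every mutant was far above every wild type although the wild types spread widely. Treh, the enzyme that splits the sugar trehalose, had 12.6 to 15.4 CPM in mutants and 0.0541 to 1.46 CPM in wild types (log2 4.51 ± 0.48, adjusted p = 8.2e-07). Slc13a5, the citrate importer of the hepatocyte membrane, rose by 4.25 ± 0.50 (adjusted p = 2.88e-06), and by 4.42 in fed mutants. The other genes among the 12 largest rises were Scara5, a ferritin-binding scavenger receptor (log2 4.54), Ly6d, a GPI-anchored surface protein (4.14), the interferon-inducible Ifi27l2b (3.99), the centromere protein gene Cenpm (3.90), the actin-bundling plastin Pls1 (3.90), the bile-duct keratin Krt19 (3.83) and the interferon-pathway gene Usp18 (3.66). Krt19 rested on replicate 3, which had 32.2 CPM where the other mutants had 1.42, 2.03 and 1.81 CPM, and without that library its log2 difference was 1.39 (adjusted p = 0.153).

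Among the largest falls, Serpina12, which encodes the secreted serpin vaspin, had 0.378 to 1.87 CPM in restricted mutants and 6.19 to 21.6 CPM in restricted wild types (log2 -3.39 ± 0.41). A1bg, a plasma glycoprotein with female-biased expression in mouse liver, had 4.68, 2.98, 12.3 and 7.29 CPM in mutants, against 17.9, 14.7, 504 and 158 CPM in wild types. It had the most negative difference of the named genes (log2 -4.66 ± 0.93, adjusted p = 0.0018), and 2 of the 4 wild-type libraries held nearly all of its footprints.

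Csad, which makes the taurine precursor hypotaurine, had 6.84 to 13.3 CPM in mutants and 34.1 to 182 CPM in wild types (log2 -3.18 ± 0.51, adjusted p = 0.00022). E2f8, a cell cycle repressor needed for hepatocyte polyploidy, fell by 3.17 ± 0.53 (adjusted p = 0.000244), with 0.189 to 1.29 CPM in mutants and 2.73 to 18.5 CPM in wild types. The other named genes among the 12 largest falls were Slc17a8, a vesicular glutamate transporter (log2 -3.29), Dclk3, a kinase (-2.95), the dehydrogenase gene Sdr9c7 (-2.84), Acot1 and Acot2, acyl-CoA thioesterases (-2.46 and -2.38), Tiam2, a Rac exchange factor (-2.45), and Plekhb1 (-2.38). Acot1 and Acot2 are close copies, and how reads shared between copies were counted is not given in the sources used here.

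**Figure D1:**
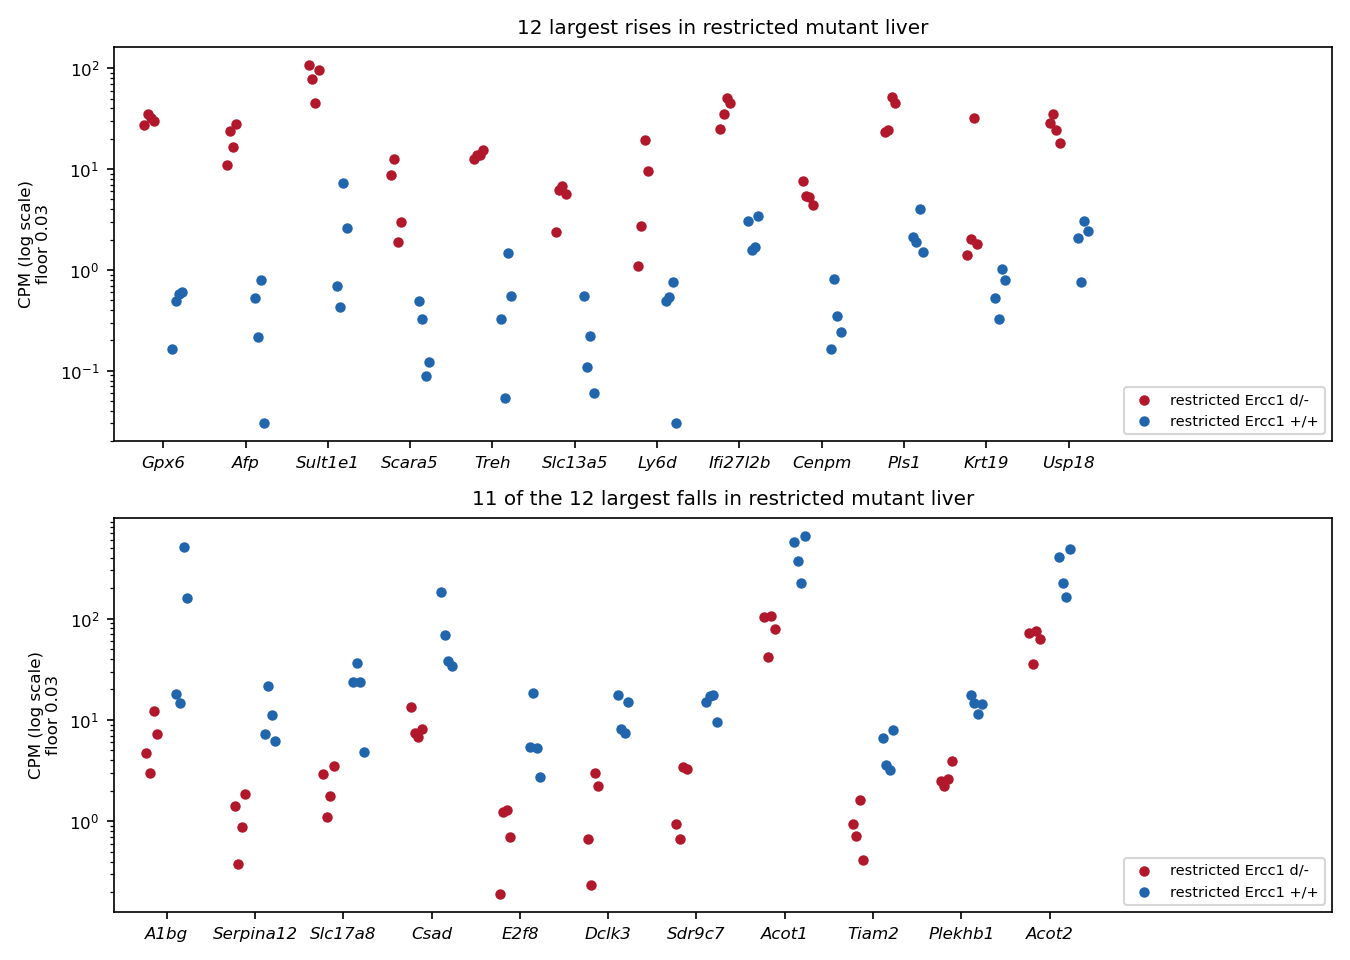
Footprint level in CPM (log axis, values under 0.03 drawn at 0.03) of the 12 genes with the largest rises (top) and of 11 of the 12 with the largest falls (bottom), 1 point per library, restricted Ercc1 d/- at the left of each pair and restricted Ercc1 +/+ at the right. In every gene shown the 4 mutant points lie on one side of the 4 wild-type points, as the rule for choosing them required.

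Interferon-response genes are switched on in infected or nucleic-acid-sensing cells by transcription factors that bind repeats of GAAA in promoters. Of 49 tested members, 30 rose in restricted mutants (61.2%, against 9.38% of all genes) and the other 19 did not pass. Their median difference was 1.02, against -0.01 over all genes. Usp18, the protease that removes ISG15 from proteins and dampens the interferon receptor, had 28.4, 35.6, 24.5 and 18.1 CPM in mutants, against 2.09, 0.758, 3.09 and 2.43 CPM in wild types (log2 3.66 ± 0.33, adjusted p = 3.04e-08). Oas1a, an enzyme that senses double-stranded RNA, had 6.99, 8.79, 7.38 and 8.54 CPM in mutants and 1.21, 1.73, 1.19 and 1.64 CPM in wild types (log2 2.47 ± 0.28, adjusted p = 9.53e-07). The groups did not overlap for either gene.

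Ifi44 rose by 3.14 ± 0.37 (adjusted p = 1.75e-06) and the mitochondrial-membrane protein gene Ifi27 by 1.23 ± 0.14 (adjusted p = 1.16e-06). The members that rose also included the antiviral effectors Rsad2, Ifit1, Ifit3, Oas3 and Mx2, the RNA sensor Ifih1, the transcription factor Irf7 and the ubiquitin-like modifier Isg15. In fed mutants 27 of the 49 members rose, with a median of 1.07, while 5.69% of all genes rose and 5.04% fell there. For Usp18 the difference between the diets was -0.17 (adjusted p = 0.926), and its level was 12.6 ± 4.38 CPM in fed mutants and 0.873 ± 0.142 CPM in fed wild types.

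The promoters of members that rose together are shown because many carry 2 copies of GAAA with any 2 bases between them. In RefSeq windows (GRCm38.p6) from 250 bases before to 50 bases after the start, this motif stood on either strand in 20 of 41 windows of the list (48.8%), from 35 matched members, against 3.44% of all 32851 windows. Among windows of members that rose, 15 of 27 (55.6%) held it. The windows of Oas1a, Gbp3 and Rsad2 follow in gene orientation, 5′ to 3′, with the matches in capitals: Oas1a at chr5:120907476-120907775 (minus strand), Gbp3 at chr3:142559794-142560093 (plus strand) and Rsad2 at chr12:26456403-26456702 (minus strand).
Oas1a: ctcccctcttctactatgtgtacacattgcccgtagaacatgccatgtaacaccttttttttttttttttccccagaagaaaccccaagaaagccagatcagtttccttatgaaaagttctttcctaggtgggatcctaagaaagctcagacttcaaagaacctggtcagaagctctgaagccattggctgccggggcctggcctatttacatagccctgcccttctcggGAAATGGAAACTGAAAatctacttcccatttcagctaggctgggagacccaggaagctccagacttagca
Gbp3: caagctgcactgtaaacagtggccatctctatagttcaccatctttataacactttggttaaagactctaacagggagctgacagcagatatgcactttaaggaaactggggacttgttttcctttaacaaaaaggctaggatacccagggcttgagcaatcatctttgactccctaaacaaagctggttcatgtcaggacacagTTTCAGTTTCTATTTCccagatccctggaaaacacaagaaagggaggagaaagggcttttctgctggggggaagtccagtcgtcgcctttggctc
Rsad2: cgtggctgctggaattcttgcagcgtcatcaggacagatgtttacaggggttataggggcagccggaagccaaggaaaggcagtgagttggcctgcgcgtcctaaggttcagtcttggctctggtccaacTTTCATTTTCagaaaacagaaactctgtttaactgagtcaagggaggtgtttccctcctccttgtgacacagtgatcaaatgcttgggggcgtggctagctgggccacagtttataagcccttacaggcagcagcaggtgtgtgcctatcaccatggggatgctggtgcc
In Oas1a and Gbp3 the capitals cover 2 overlapping matches, and in Gbp3 and Rsad2 they are on the other strand. Gbp3, a guanylate-binding protein, rose by 1.56 and Rsad2, the antiviral enzyme viperin, by 2.44 on the log2 scale. A match describes these letters and is not a shown binding site.

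Resident liver macrophages, the Kupffer cells, take up debris and carry complement and scavenger receptors. Of 21 tested macrophage markers, 10 rose in restricted mutants (47.6%, against 9.38% of all genes, median 0.62) and 11 did not pass. In fed mutants 16 of the 21 rose (median 1.02), and the difference between the diets passed for 0 of them. Mpeg1, a pore-forming protein of phagocytes, had 66.1, 86.4, 80.2 and 87.2 CPM in mutants, against 24, 33.9, 58.7 and 38.6 CPM in wild types (log2 1.05 ± 0.20, adjusted p = 0.00059). Cd5l, a secreted protein of Kupffer cells, had 62.9 to 86.1 CPM in mutants and 33.7 to 51.2 CPM in wild types (log2 0.93 ± 0.18, adjusted p = 0.000726). Trem2, a lipid-sensing receptor of macrophages, had 1.04, 1.09, 0.987 and 1.18 CPM in mutants, against 0.164, 0, 0.309 and 0.303 CPM in wild types (log2 2.43 ± 0.63, adjusted p = 0.00853). With wild types so near 0, the size of the Trem2 difference is uncertain. The summed level of the 21 markers was 632 to 792 CPM in mutants and 384 to 580.2 CPM in wild types, without overlap. In liver samples of mixed cells, more cells of a type and more RNA per cell cannot be told apart. Without mutant replicate 2, wild-type replicate 1 or wild-type replicate 2, the markers past the threshold numbered 5, 6 and 5. The interferon list rose beside these markers, and their part in it was not tested.

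Of 13 neutrophil markers, 5 were tested. S100a9, a calcium-binding protein of neutrophils, rose by 2.50 ± 0.50 (adjusted p = 0.000926), while Ly6g, the surface antigen that defines them, fell by 1.86 ± 0.47 (adjusted p = 0.00669). The summed neutrophil list, 65.1 to 106 CPM in mutants and 4.25 to 23.3 CPM in wild types, was mostly Lcn2, which hepatocytes also secrete in inflammation. Lcn2 had 59.8, 81.5, 71.2 and 101 CPM in mutants, against 1.93, 7.79, 15.9 and 14.6 CPM in wild types, and did not pass the test although the groups were apart (log2 2.97 ± 1.05, adjusted p = 0.0576). The lipid-binding protein Fabp4 had 24.6 to 41.9 CPM in mutants and 7.33 to 10.0 CPM in wild types (log2 1.87 ± 0.32). Of the 9 adipocyte markers that include it, 5 were tested and 2 rose, the other being Lpl, the lipoprotein lipase (log2 1.63 ± 0.43, adjusted p = 0.0118), which fed mutants also had higher. The adipocyte list summed to 61.6 to 97.7 CPM in mutants and 23.5 to 33.3 CPM in wild types, while its members Adipoq, Lep, Plin1 and Retn had no footprint in any restricted mutant.

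**Figure D2:**
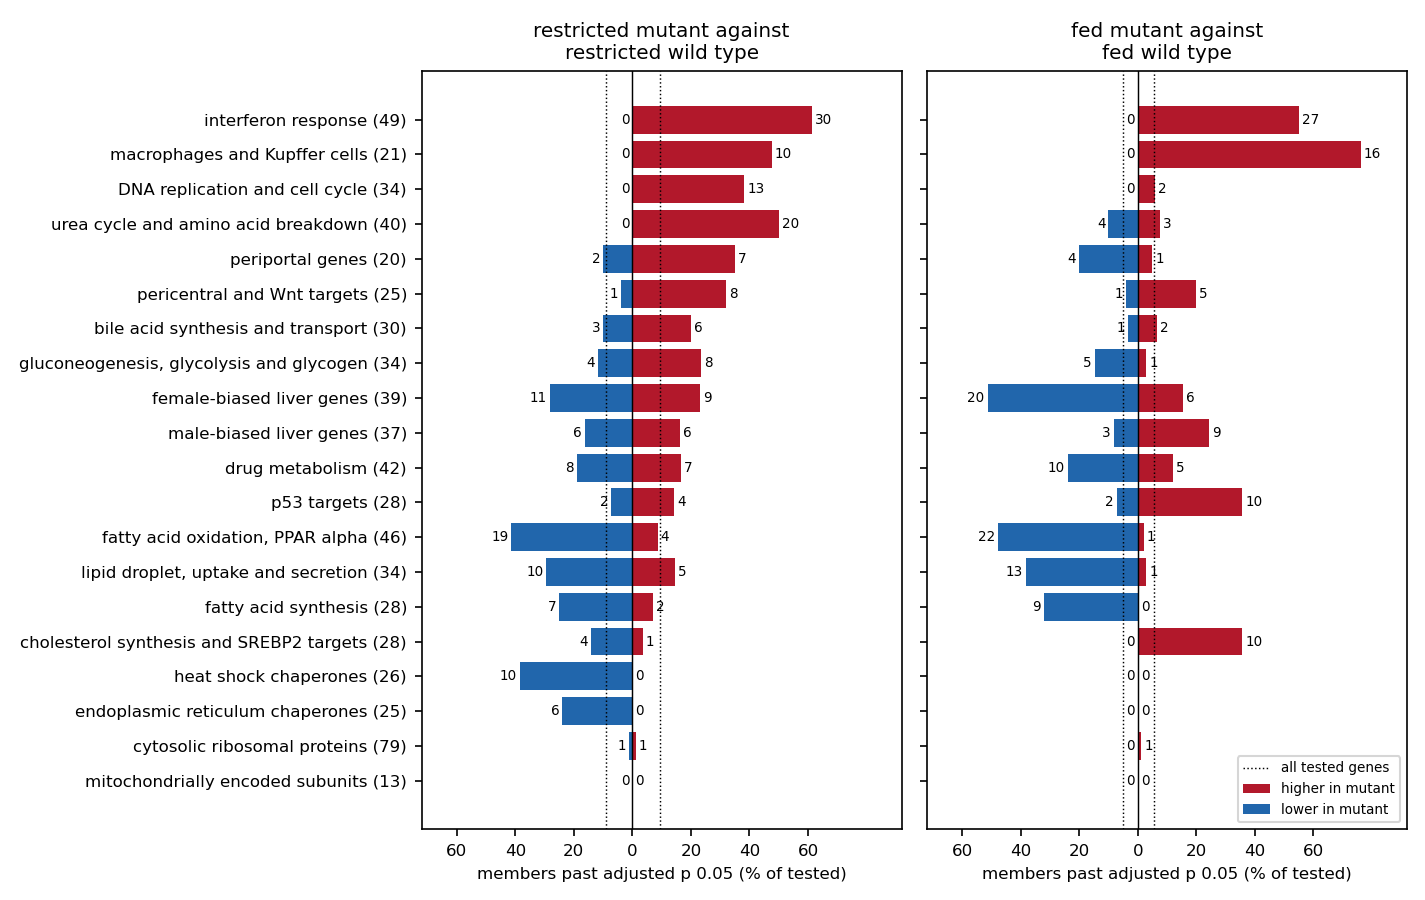
Share of the tested members of 20 gene lists (number tested in brackets) that were higher (right, red) or lower (left, blue) in mutants past an adjusted p of 0.05, under restriction (left panel) and fed (right panel), with the counts beside the bars and dotted lines for the share among all tested genes. The interferon list had 30 rises under restriction and 27 fed, the amino acid and cell cycle lists had 20 and 13 under restriction and 3 and 2 fed, and the heat shock list had 10 falls under restriction. A difference between the diets passed for 4 amino acid, 1 cell cycle, 0 interferon and 0 heat shock members.

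The urea cycle turns the nitrogen of amino acids into urea, and the enzymes that feed it with amino acid carbon and nitrogen are mostly made by hepatocytes. Of 40 tested genes of the urea cycle and amino acid breakdown, 20 rose in restricted mutants (median 0.52) and 20 did not pass. These rises were 50% of the list, against 9.38% of all genes. Cth, which splits cystathionine to cysteine, had 825, 548, 475 and 385 CPM in mutants, against 192, 131, 140.3 and 64.8 CPM in wild types (log2 2.08 ± 0.25, adjusted p = 4.1e-06). Aass, the first enzyme of lysine breakdown, had 1897, 1307, 1221 and 952 CPM in mutants and 519.6, 605, 336 and 459.6 CPM in wild types (log2 1.49 ± 0.19, adjusted p = 5.37e-06). No mutant library fell within the wild-type range for either gene.

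Slc25a15, the mitochondrial ornithine carrier of the urea cycle, had 591 to 685 CPM in mutants and 229 to 309.7 CPM in wild types (log2 1.13 ± 0.15, adjusted p = 6.06e-06). Hgd, of tyrosine breakdown, rose by 1.01 ± 0.13, and Oat, which makes glutamate semialdehyde from ornithine, by 1.45 ± 0.21 (adjusted p = 3.13e-05). Cps1, the entry enzyme of the urea cycle, had 9209 to 14558 CPM in mutants and 5338 to 8309 CPM in wild types (log2 0.71 ± 0.16, adjusted p = 0.00221). Arg1, the arginase that releases urea, rose by 0.72 ± 0.13 (adjusted p = 0.000397). Got1, an aspartate aminotransferase named after its values were seen, had the largest difference of the list (log2 2.16, adjusted p = 4.24e-05).

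In the fed comparison 3 of these 40 genes rose and 4 fell, with a median of -0.06. The genotype difference under restriction exceeded the fed one past the threshold for 4 members, against 63 of all 12211 genes (0.516%). They were Cth (by 1.76 ± 0.35, adjusted p = 0.0114), Aass (by 1.53 ± 0.27, adjusted p = 0.0026), Arg1 (by 0.84 ± 0.19, adjusted p = 0.0247) and the alanine aminotransferase gene Gpt2. Cth averaged 558 ± 189.8 CPM in restricted mutants, 132 ± 52.3 in restricted wild types, 185 ± 34.4 in fed mutants and 148 ± 25.2 in fed wild types (SD, n = 4 each), so the other 3 groups lay close together. Aass stood at 1344 ± 398 CPM in restricted mutants and between 480 and 511 CPM on average in the other 3 groups. Etnppl, a periportal gene whose product breaks down phosphoethanolamine, rose by 1.93 ± 0.34 in restricted mutants and fell by 1.18 in fed mutants (difference 3.11 ± 0.48, adjusted p = 0.00165).

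**Figure D3:**
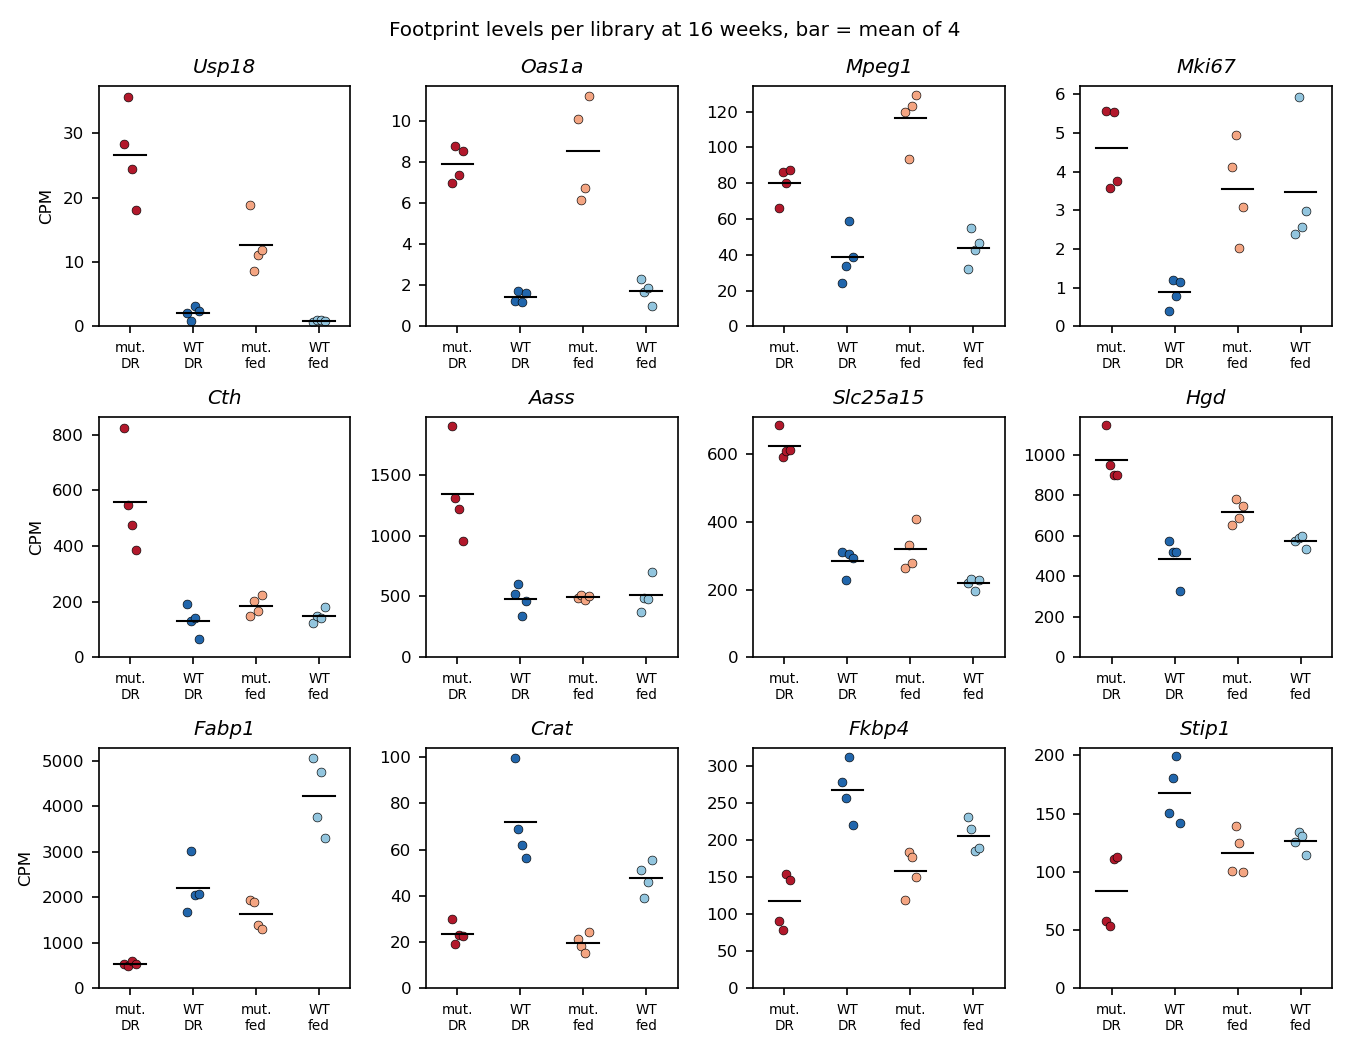
Footprint level in CPM of 12 named genes, 1 point per library and a bar at the mean of 4, for restricted mutants, restricted wild types, fed mutants and fed wild types from left to right. Usp18 and Oas1a were high in mutants under both diets, Cth and Aass in restricted mutants, Fabp1 and Crat were low in mutants under both diets, and Mki67 was low in restricted wild types.

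Genes of DNA replication and mitosis are translated in dividing cells, which are rare in adult liver. Of 34 tested, 13 rose in restricted mutants (38.2%, against 9.38% of all genes) and 21 did not pass, with a median of 1.36. Mki67, a protein of the chromosome surface in dividing cells, had 5.57, 3.59, 5.55 and 3.75 CPM in mutants, against 0.393, 1.19, 0.795 and 1.15 CPM in wild types (log2 2.43 ± 0.44, adjusted p = 0.000393). Top2a, the topoisomerase that untangles sister chromosomes, had 1.80, 2.27, 4.46 and 3.06 CPM in mutants and 0.654, 0.812, 0.133 and 1.15 CPM in wild types (log2 2.12 ± 0.45, adjusted p = 0.00185). The groups did not overlap for either gene.

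The mitotic kinase gene Plk1 had 16, 40, 31 and 12 footprints in mutants and 0, 1, 3 and 0 in wild types, and the replication factor gene Gins2 15, 16, 15 and 9 in mutants and 0, 0, 2 and 0 in wild types. At such counts the fold depends on the constant added in the fit and is not given. Ccnd1, the cyclin that drives entry into the cycle, had 20.8, 54.2, 97.9 and 59.8 CPM in mutants, against 8.38, 4.00, 8.30 and 19.4 CPM in wild types (log2 2.55 ± 0.53, adjusted p = 0.00225). In the fed comparison Ccnd1 rose too (1.94, adjusted p = 0.0188). Mki67 averaged 4.62 ± 1.09 CPM in restricted mutants and 0.883 ± 0.372 CPM in restricted wild types, and 3.55 ± 1.27 CPM in fed mutants and 3.47 ± 1.67 CPM in fed wild types (SD, n = 4 each), so restricted wild types were the low group. The difference between the diets did not pass for Mki67 (2.39 ± 0.60, adjusted p = 0.0543), and passed for 1 of the 34 members, Gins2. With the stricter filter of 50 or more counts in 4 libraries, 7 members passed.

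Several p53 targets and senescence genes were measured beside these. Of 28 tested p53 targets 4 rose and 2 fell in restricted mutants (21.4%, near the 18.2% of all genes). In fed mutants 10 rose and 2 fell, but for 0 of the 28 did the difference between the diets pass. DESeq2 and scaling by library totals each gave 7 rises under restriction, and 3 members in all passed without mutant replicate 2 or without wild-type replicate 1. Cdkn1a, the cell cycle inhibitor p21, had 47.1, 91.1, 17.9 and 14.6 CPM in restricted mutants and 8.44, 21.5, 17.8 and 27.6 CPM in restricted wild types, with overlapping groups (log2 1.19 ± 0.68, adjusted p = 0.241). The stress hormone Gdf15 had 1.43 to 6.90 CPM in mutants and 0.556 to 3.76 CPM in wild types (adjusted p = 0.376). Of 18 tested genes of senescence-associated secretion and its inhibitors 1 passed (5.56%), with a median of 0.56. It was Mmp12, a macrophage elastase, which rose by 3.77 ± 0.62 (adjusted p = 0.000136), with 2.46 to 5.27 CPM in mutants and 0.0327 to 0.606 CPM in wild types. At such low wild-type levels the size of this difference is uncertain.

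Fatty acids are bound in hepatocytes by FABP1 and burnt in mitochondria and peroxisomes, and the nuclear receptor PPAR alpha drives many of these genes. Of 46 tested members, 19 fell in restricted mutants, 4 rose and 23 did not pass (median -0.34). Thus 50% passed, against 18.2% of all genes, of which 9.38% of all genes rose and 8.85% fell. Fabp1 itself had 536, 500.1, 591 and 539 CPM in mutants, against 1678, 3011, 2058 and 2069.8 CPM in wild types (log2 -2.03 ± 0.18, adjusted p = 2.28e-08). Crat, which moves acetyl groups onto carnitine, had 19.0 to 29.9 CPM in mutants and 56.2 to 99.8 CPM in wild types (log2 -1.60 ± 0.17, adjusted p = 5.63e-07). The peroxisomal thiolase gene Acaa1b fell by 1.60 ± 0.20 (adjusted p = 2.94e-06), and the groups were apart for all 3.

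In fed mutants 22 of the 46 members fell. Fabp1 stood at 1627 ± 326 CPM in fed mutants and 4215 ± 823 CPM in fed wild types, so the restricted mutants had the lowest level of the 4 groups (541 ± 37.2 CPM). The members that fell included Plin2, which coats lipid droplets, and the thioesterase genes Acot1 to Acot4. Cpt1a, which admits fatty acids to mitochondria, was among the 4 that rose. Fgf21, a fasting hormone of liver, was low, with 0 to 0.945 CPM in mutants and 0.758 to 1.94 CPM in wild types (adjusted p = 0.0451), and 10 of its 16 alternative fits did not pass.

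Cd36, the fatty acid importer, went the other way. It had 192, 190, 220.2 and 209 CPM in restricted mutants, against 24.3, 27.7, 36.0 and 34.3 CPM in restricted wild types (6.63-fold, log2 2.73 ± 0.26, adjusted p = 2.31e-07). In fed mutants it was lower (78.6 ± 11.2 CPM, against 139 ± 46.5 CPM in fed wild types, log2 -0.82, adjusted p = 0.0363), and the difference between the diets was 3.55 ± 0.36 (adjusted p = 1.13e-05). Pnpla2, the lipase that starts triglyceride breakdown, rose by 1.49 ± 0.24 in restricted mutants (adjusted p = 0.000113), with a fed difference of 0.06. Among 28 tested genes of fatty acid synthesis 7 fell and 2 rose (32.1%, against 18.2% of all genes). Dgat2, which completes triglycerides, had 115 to 136 CPM in mutants and 208 to 288 CPM in wild types (log2 -0.92 ± 0.13, adjusted p = 2.7e-05).

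Glucose genes split. Of 34 tested, 8 rose and 4 fell in restricted mutants (35.3%, against 18.2% of all genes). The glucose carrier gene Slc2a1 rose by 1.44 ± 0.26 (adjusted p = 0.00041) and Gys2, the liver glycogen synthase, by 1.00 ± 0.19 (adjusted p = 0.000628). Of 30 tested bile acid genes 6 rose and 3 fell (30%). Abcg5 and Abcg8, which form the pump that exports sterols into bile, rose together: Abcg5 had 135 to 213 CPM in mutants and 22.1 to 59.4 CPM in wild types (log2 2.09 ± 0.23, adjusted p = 8.2e-07), and Abcg8 rose by 1.56 ± 0.31 (adjusted p = 0.00111).

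Cytosolic chaperones of the heat shock response hold and fold client proteins with HSP90. Of 26 tested members 10 fell in restricted mutants (38.5%, against 8.85% of all genes) and 16 did not pass, with a median of -0.47. Fkbp4, an HSP90 co-chaperone of steroid receptors, had 90.4, 78.5, 155 and 146 CPM in mutants, against 279, 257, 313 and 221 CPM in wild types (log2 -1.19 ± 0.17, adjusted p = 3.14e-05). Stip1, which links HSP70 to HSP90, had 58.0, 53.7, 111 and 113 CPM in mutants and 150.3, 180.2, 199 and 142 CPM in wild types (log2 -1 ± 0.19, adjusted p = 0.000704). Within the mutants, replicates 1 and 2 were lower than 3 and 4 for both, and all 4 were below the wild types.

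Hspa4l fell by 1.20 ± 0.25 (adjusted p = 0.0018) and Ahsa1, the activator of HSP90's ATPase, by 0.62 ± 0.15 (adjusted p = 0.00513). Hsp90aa1 and Hsp90ab1, which encode HSP90 itself, and Hsph1, Hspb1, Bag3 and Chordc1 also fell. For Fkbp4 the fed difference was -0.38 (adjusted p = 0.166) and the difference between the diets did not pass (-0.80 ± 0.24, adjusted p = 0.119), so a difference between the diets was not shown for it. Such a difference passed for 0 of the 26 tested members.

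Chaperones of the endoplasmic reticulum fold secreted proteins, and their genes answer to the sensors IRE1, PERK and ATF6. Of 25 tested, 6 fell in restricted mutants and 19 did not pass (median -0.62). The 24% that passed lay near the 18.2% of all genes, while 8.85% of all genes fell. Without wild-type replicate 3 the median was -0.19, and of 4 members past the threshold 2 were higher in mutants. Ern1, the sensor IRE1, had 17 to 30.7 CPM in mutants and 34.3 to 53.5 CPM in wild types (log2 -0.83 ± 0.15, adjusted p = 0.000305). Dnajc3 fell by 0.66 ± 0.18 (adjusted p = 0.0112), while Herpud1 and Pdia4 fell by 1.16 and 1.12 (adjusted p = 0.0088 and 0.0364) with overlapping groups, wild-type replicate 1 having 141 CPM of Herpud1 and 199.6 CPM of Pdia4. Pdia4 no longer passed in 8 of 17 alternative fits, with -0.40 (adjusted p = 0.261) without wild-type replicate 3. The count of members past the threshold was 3 without mutant replicate 1, 12 without wild-type replicate 1 and 10 without wild-type replicate 2. Scaled by library totals alone, 4 fell and 2, P4hb and Dnajc10, rose.

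The set of 4 groups allowed a test of whether the genotype difference itself differed between diets. It passed for 98 genes (0.803%), 63 with a more positive difference under restriction and 35 (0.287%) with a more negative one, and DESeq2 passed 279. Without restricted wild-type replicate 1 or 2 the test passed 205 or 178 genes, and 61 to 65 without fed wild-type replicate 3, fed mutant replicate 4, restricted mutant replicate 1 or fed mutant replicate 1. Of the 1310 genes past the threshold in fed mutants (10.7%), 668 also passed under restriction, which is 51.0% of the fed list and 30.0% of the restricted list, with 655 in the same direction and 13 opposite. Across the 12211 genes, which are not independent replicates, the log2 differences of the 2 diets had a Pearson correlation of 0.589. Of the 1559 genes that passed under restriction alone, 41 passed the test of the difference between diets.

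The genes whose mutant difference was most shifted by diet held xenobiotic and sterol enzymes. Cyp2b10, a cytochrome P450 induced through the receptor CAR, had 75.7, 38.8, 45.0 and 42.2 CPM in restricted mutants and 207, 116, 179 and 181 CPM in restricted wild types (log2 -1.76 ± 0.37, adjusted p = 0.00217). It had 0.761, 1.16, 2.74 and 0.357 CPM in fed mutants and 41.4, 51.6, 30.1 and 74.4 CPM in fed wild types (log2 -5.31). The deficit was thus smaller under restriction by 3.55 ± 0.57 (adjusted p = 0.00239), and for the neighbouring copies Cyp2b13 and Cyp2b9 by 3.54 ± 0.65 and 3.51 ± 0.66. These 3 genes are near-identical in parts and may share reads.

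Slc10a2, the bile acid importer, was 6.99-fold higher in restricted mutants than in restricted wild types (7.65 to 28.5 CPM, against 1.18 to 3.41 CPM, adjusted p = 0.000136). Fed livers held more of it in both genotypes, 30.8 ± 6.58 CPM in fed mutants and 59.2 ± 15.2 CPM in fed wild types, and the difference between the diets was 3.75 ± 0.57 (adjusted p = 0.00165). Scd1, the desaturase that makes oleate, had 1782 to 2757 CPM in restricted mutants and 2131 to 4092 CPM in restricted wild types, without passing (adjusted p = 0.316). It stood at 713 ± 304 CPM in fed mutants and 7296 ± 1694 CPM in fed wild types, and the diets differed by 2.75 ± 0.57 (adjusted p = 0.0226).

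In the opposite direction the most negative value of the named genes was that of Sqle. Sqle, which epoxidises squalene in sterol synthesis, had 17.1, 33.7, 34.5 and 25.6 CPM in restricted mutants, against 41.4, 8.60, 27.4 and 26.7 CPM in restricted wild types, with no difference past the threshold (log2 0.09 ± 0.57, adjusted p = 0.939). In the fed groups Sqle had 39.3 to 56.9 CPM in mutants and 1.16 to 4.28 CPM in wild types (log2 4.05), so the difference under restriction was lower by 3.96 ± 0.86 (adjusted p = 0.0316), and 11 of 23 alternative fits did not pass. Msmo1 and Cyp51, of later steps of the pathway, gave -2.40 ± 0.54 (adjusted p = 0.0339) and -1.81 ± 0.40 (adjusted p = 0.0308), and 13 and 9 of 23 alternative fits did not pass. Of 28 tested genes of cholesterol synthesis, 4 fell and 1 rose in restricted mutants (17.9%, near the 18.2% of all genes). In fed mutants 10 of the 28 rose, and for 4 the difference between the diets passed. Osgin1, an oxidative stress inhibitor of growth, and Aldoc, an aldolase, had differences between the diets of -2.57 ± 0.40 (adjusted p = 0.00165) and -1.75 ± 0.27 (adjusted p = 0.00146).

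**Figure D4:**
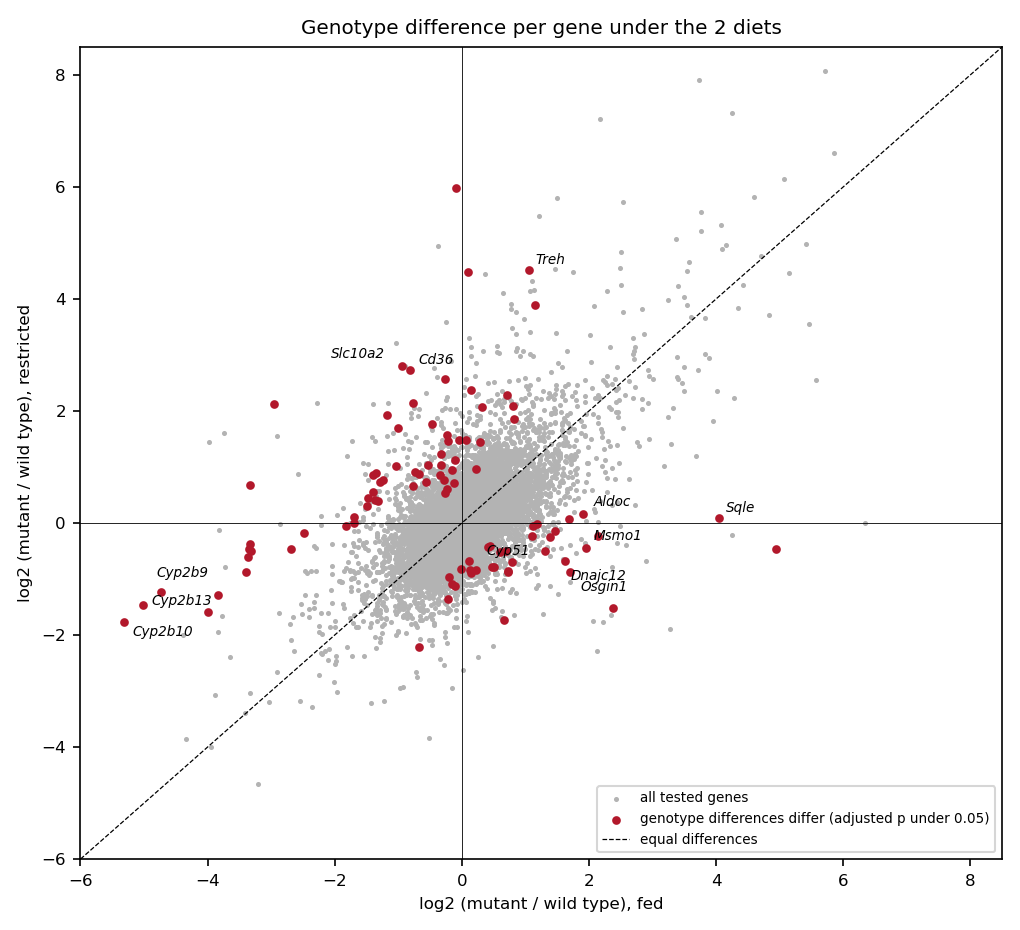
Log2 ratio of mutant to wild type for each of the 12211 tested genes, under restriction on the vertical axis and fed on the horizontal axis. Red points are the 98 genes whose 2 ratios differed, 63 above the dashed line of equal ratios and 35 below it, with Cyp2b10 at the far left and Sqle at the far right among the labelled genes.

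Sex-biased genes of mouse liver follow growth hormone pulses and androgen. Of 39 tested female-biased genes 9 rose and 11 fell in restricted mutants (51.3%, against 18.2% of all genes). In fed mutants 6 rose and 20 fell, while 5.69% of all genes rose and 5.04% fell there. For 10 members the difference between the diets was positive past the threshold (2 negative). Of 37 tested male-biased genes 6 rose and 6 fell under restriction (32.4%, against the same 18.2%). C6, a complement component, had 68.8 to 120 CPM in mutants and 21.8 to 27.3 CPM in wild types (log2 1.94 ± 0.19, adjusted p = 1.65e-07), while Cyp4a12a fell by 0.81 ± 0.16 (adjusted p = 0.000976). Of 26 tested genes of the growth hormone and IGF-1 axis 4 fell and 1, Igfbp5, rose (19.2%, near the 18.2% of all genes). Ghr, the growth hormone receptor, had 49.9 to 62.3 CPM in mutants and 62.0 to 136 CPM in wild types (log2 -0.80 ± 0.17, adjusted p = 0.00126), and Igfals, which stabilises IGF-1 in blood, fell by 1.16 ± 0.26 with overlapping groups (adjusted p = 0.0026). Igf1 had 210.4 to 276 CPM in mutants and 193 to 347 CPM in wild types and did not pass (log2 -0.27 ± 0.15, adjusted p = 0.218), but without wild-type replicate 1 it passed (-0.44, adjusted p = 0.0201).

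Drug-metabolising and retinoid genes also differed. Of 42 tested drug-metabolism genes 7 rose and 8 fell (35.7%, against 18.2% of all genes). Of those that fell 4 were carboxylesterases, Ces1d, Ces1e, Ces1f and Ces2a, with log2 differences between -1.62 and -1.03. Another carboxylesterase gene, Ces2c, rose by 0.55 (adjusted p = 0.0107). Retsat, which saturates retinol, had 351 to 459 CPM in mutants and 1297 to 1838 CPM in wild types (log2 -1.86 ± 0.15, adjusted p = 5.61e-09). Cyp26a1, which clears retinoic acid, rose by 1.5 ± 0.30 (adjusted p = 0.000907). Among the targets of NRF2, the oxidative stress regulator, 5 of 32 rose and 3 fell (25%). Nqo1, a quinone reductase, rose by 1.79 ± 0.26 (adjusted p = 3.49e-05).

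The 6 genes past the threshold with the highest mean CPM, which is not per length, were Cps1 and the 5 copies Serpina1a to Serpina1e of alpha-1-antitrypsin, a major protease inhibitor of plasma. Serpina1a had 9639, 10176, 7777 and 11051 CPM in mutants, against 12926, 19864, 25009 and 21316 CPM in wild types (log2 -1.03 ± 0.22, adjusted p = 0.00158). Serpina1b to Serpina1e fell by 0.81 to 1.05, and reads shared between these copies cannot be assigned to 1 of them with certainty. Ttr, the thyroxine and retinol-binding carrier of plasma, had 2439 to 3047 CPM in mutants and 4053 to 5429 CPM in wild types (log2 -0.92 ± 0.13, adjusted p = 1.51e-05). Alb had 125942 to 165433 CPM in mutants and 140068 to 196046 CPM in wild types and did not pass (log2 -0.21 ± 0.19, adjusted p = 0.482).

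Few genes of the translation machinery passed. Of 79 tested cytosolic ribosomal protein genes 1 rose and 1 fell (2.53%, against 18.2% of all genes). Their median was -0.15, with 18 of the 79 differences positive, and was -0.04 with scaling by library totals alone. Of 42 initiation and elongation factors 4 rose and 1 fell (11.9%, median -0.01), and 2 in all passed without wild-type replicate 3. The single ribosomal protein gene that fell, Rpl13a, had 0.340 to 0.992 CPM in mutants and 0.704 to 9.5 CPM in wild types, with overlapping groups. None of the 13 mitochondrially encoded subunits passed edgeR's test, the count at an unadjusted p under 0.05 was also 0, DESeq2 gave 0 as well, and their median was 0.33.

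A second table counted ribosome P-sites in open reading frames (ORFs) of single transcripts. It gives transcripts but no gene names, so its ORFs are described by position. Of 18344 tested ORFs 3114 (17%) passed, 1567 (8.54%) higher and 1547 (8.43%) lower in restricted mutants. Upstream ORFs are short frames before the longest ORF of a transcript that can hold back its translation. Of 516 tested upstream ORFs, a group taken up after the values were seen, 73 were lower and 7 higher, with a median of -0.51 against -0.02 over all ORFs. The share of them past the threshold, 15.5%, was near that of all ORFs, and their direction was mostly down. Their median level was -0.43, -0.53, -0.54 and -0.54 log2 CPM in restricted mutants, against -0.30, -0.04, 0.17 and 0.30 log2 CPM in restricted wild types. In fed mutants it was -0.39, -0.06, -0.13 and -0.18, against 0.04, 0.13, 0.08 and 0.23 in fed wild types, and 22 upstream ORFs were lower and 4 higher, where 9.14% of all ORFs passed, 5.03% higher and 4.12% lower.

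Restricted mutants lay below restricted wild types in every library, but the wild types spread over 0.60 and the fit of the 8 libraries alone passed 22 upstream ORFs. The share of all P-sites on upstream ORFs was 0.164% ± 0.00418 in restricted mutants and 0.183% ± 0.00908 in restricted wild types (SD, n = 4 each). The highest restricted mutant had 0.169% and the lowest restricted wild type 0.171%. In the fed groups this share overlapped, at 0.177% to 0.237% in mutants and 0.215% to 0.245% in wild types. Of 485 upstream ORFs paired with the longest ORF of their transcript, 73 passed, and the longest ORF passed in 74 pairs. In 55 pairs the upstream ORF passed while the longest ORF did not, 53 of them lower. Whether upstream ORFs changed apart from the longest ORF was not tested. In 18 pairs both passed, 17 in the same direction. Pairs on 1 transcript share its mRNA, and 485 pairs came from 447 transcripts.

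Long genes present the longest stretch of DNA to lesions that block transcription. Protein-coding genes were split by genomic span into 5 equal groups, and the longest group had a mean log2 CPM below that of the shortest group by 0.57, 0.55, 0.50 and 0.59 in restricted mutants, and by 0.56, 0.46, 0.67 and 0.95 in restricted wild types. The groups overlapped (difference 0.11, exact permutation test, 2-sided p = 0.457, smallest possible 0.0286). In the longest group, 209 genes rose (8.74%) and 212 fell (8.86%) in restricted mutants, near the 9.38% and 8.85% of all genes. In the shortest group, 188 rose (7.86%) and 290 fell (12.1%). In fed mutants 90 rose and 236 fell in the longest group, and 153 rose and 89 fell in the shortest. Of all genes 5.69% rose and 5.04% fell there. The fed difference was -0.15 (exact permutation p = 0.0857). The 2 differences were 0.26 apart (exact permutation p = 0.0449 over 4900 assignments, a test added after the values were seen). With each of the 16 libraries left out in turn, that p was over 0.05 in 11 cases and ranged between 0.00449 and 0.1.

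**Figure D5:**
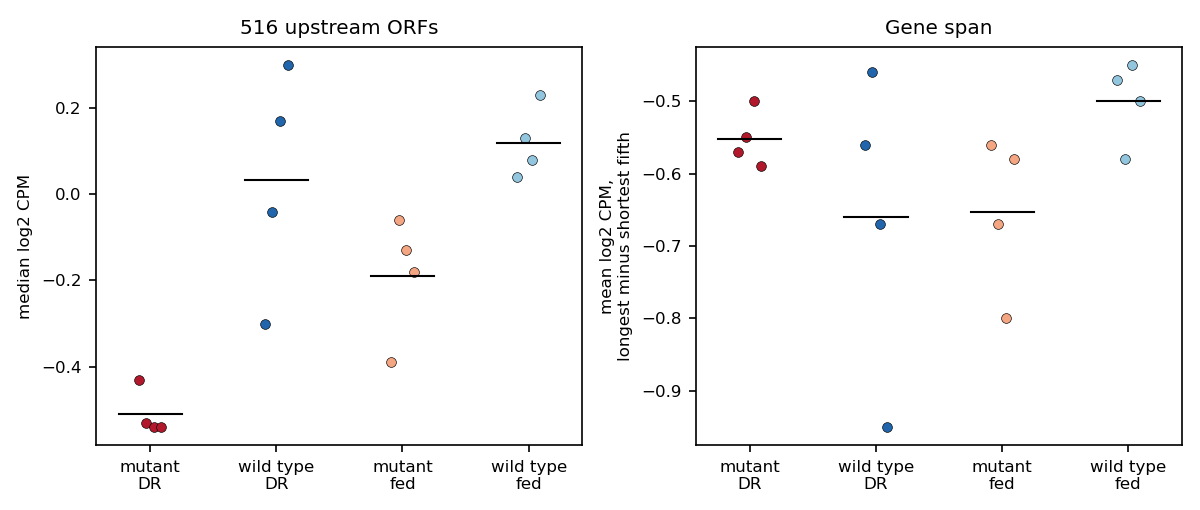
Median log2 CPM of 516 upstream ORFs (left) and mean log2 CPM of the longest minus the shortest of 5 groups of genes by span (right), 1 point per library and a bar at the mean of 4, for restricted mutants, restricted wild types, fed mutants and fed wild types. Upstream ORFs of the 4 restricted mutants lie between -0.54 and -0.43, below the wild types, and the span values of restricted mutants lie within the range of restricted wild types.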

How the data were processed

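Ribosome footprints of mouse liver were measured in 6 groups of 4 libraries, and 8 libraries are compared here. The authors deposited raw read counts per gene and P-site counts per open reading frame. Per the submitters' processing notes, Trimmomatic 0.39, cutadapt 3.4, Bowtie2 2.4.2, STAR 2.7.0f and 2.7.8a, and featureCounts of Subread 1.6.4 were used with GRCm38.p6. Their roles, the strand setting and the handling of reads that map to several places were not stated in what was used. The mRNA libraries of the same livers were not used here.

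Genes with enough counts (filterByExpr) were fitted by edgeR 4.0.16 (R 4.3.3, limma 3.58.1), with TMM scaling, 1 term per group over all 24 libraries and quasi-likelihood F tests. 12211 of 22429 genes were tested, with a biological coefficient of variation of 24.2% and 18 residual degrees of freedom. P-values were adjusted by Benjamini-Hochberg over all genes, and calls are at 0.05. DESeq2 1.42.0 was an alternative, and the scripts were tested on simulated data. Python 3.11.15 drew the figures.

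The compared groups, the gene lists and the rules were chosen with earlier results of these data known. Genes named are the 12 largest rises and falls among called genes with non-overlapping groups and a mean of at least 5 CPM in 1 group, up to 4 called genes per list by p-value, the 6 with the largest positive and negative differences between diets, the 6 called genes with the highest CPM, and fixed genes such as Ercc1 and Igf1. Some genes that these rules select are not reported here. Others are said to have been chosen after their values were seen. Same-numbered mutants and wild types correlated at 0.0292, 0.00338, 0.25 and -0.164, so the numbers were not taken as pairs. No replicates agreed within sampling noise.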

Additional observations from a re-analysis of the deposited data

Results flagged for a closer look

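In groups of 4 libraries, a single library lay far from the other 3 for 17 named values of 346 groups examined. Chance alone marks about 1 in 20 groups, or about 17 here. Among restricted mutants these were Krt19 in replicate 3 (32.2 CPM), Ebp in replicate 1 (155 CPM), Cyp2b10 in replicate 1 (75.7 CPM) and Gdf15 in replicate 2 (6.9 CPM). Among restricted wild types, replicate 1 stood apart for Nqo1 (8.74 CPM), Ndufa12 (84.8 CPM), Ttr (4053 CPM), Oat (723 CPM), Etnppl (212 CPM) and Col3a1 (2.42 CPM). Replicate 2 stood apart for E2f8 (18.5 CPM), replicate 3 for Igfals (373 CPM), Igfbp5 (4.77 CPM) and Gins2 (0.0883 CPM), and replicate 4 for Hlf (17.1 CPM), Mgll (60.8 CPM) and Gpnmb (0.849 CPM).

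The log2 difference of mutant from wild type was more positive under restriction than fed, past an adjusted p of 0.05 in edgeR's quasi-likelihood test, for 18 named genes, Gins2 included. The difference between diets was 3.45 for Treh, 2.75 for Cenpm, 3.55 for Cd36, 1.29 for the sterol pump gene Abcg5, 1.36 for Acox2, of bile acid synthesis, and 1.43 for the lipase gene Pnpla2. For amino acid genes it was 1.76 for Cth, 1.53 for Aass, 2.84 for Psat1, of serine synthesis, 0.84 for Arg1 and 3.11 for Etnppl. It was 2.22 for the cation transporter gene Slc22a3, 3.75 for Slc10a2, 3.55 for Cyp2b10, 3.54 for Cyp2b13, 3.51 for Cyp2b9 and 2.75 for Scd1. Gins2 had a fitted value of 4.38, which depends on the constant added to its counts, since restricted wild types held 0, 0, 2 and 0 footprints. The difference was more negative under restriction for Sqle (-3.96), Osgin1 (-2.57), Msmo1 (-2.40), the co-chaperone gene Dnajc12 (-2.30, not passed in 12 of 23 alternative fits), Cyp51 (-1.81), Aldoc (-1.75) and Tm7sf2 (-1.05), of sterol synthesis.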

How the results depend on the processing

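Requiring a change shown to exceed 1.5-fold left 437 of 2227 genes, 15 members of the interferon list, 9 of fatty acid oxidation, 8 of the urea cycle list, 1 of the heat shock list, 2 macrophage markers and 0 endoplasmic reticulum chaperones (6 by edgeR and 9 by DESeq2 without that requirement, 13 at an unadjusted p under 0.05). Fitting the 8 libraries alone left 769 genes, 1029 open reading frames, 22 upstream frames, 14 interferon, 13 fatty acid oxidation, 13 urea cycle, 5 heat shock and 1 endoplasmic reticulum genes and 4 macrophage markers. The endoplasmic reticulum list gave 3 members with no low-count filter and 3 in a fit of the 4 groups at 16 weeks. The cell cycle list gave 7 with at least 50 counts in 4 libraries. DESeq2 gave 279 genes with a difference between diets. Leaving out 1 library gave 1864 to 2251 genes under restriction, 806 to 1090 fed and 61 to 205 for the difference between diets, and 2524 to 3133 open reading frames (60 to 104 upstream). It gave 21 to 34 interferon, 19 to 25 fatty acid oxidation, 18 to 23 urea cycle, 3 to 12 endoplasmic reticulum, 7 to 10 heat shock and 12 to 16 cell cycle genes, and 5 to 11 macrophage markers. The log2 difference of Ercc1 was -2.91 to -2.39, and the span difference 0.01 to 0.17. Sqle, which did not pass, ranged from -0.20 to 0.40, with -0.03 and -0.04 without mutant replicates 2 and 3, and Gdf15 from -0.01 to 1.26. The cause of these shifts was not tested.

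With the replicate number as a block, 2149 genes passed under restriction, 1250 fed, 112 for the difference between diets, 2988 open reading frames and 3 endoplasmic reticulum chaperones. The numbers did not pair the samples. Over all alternatives, 2722 of 2980 values of named genes kept their direction and side of the threshold, 250 no longer passed, 4 newly passed and 4 changed sign. The losses were uneven between alternatives. Of 176 named genes, 47 no longer passed in the fit of the 8 libraries alone, and 84 when a change over 1.5-fold was required. Low counts limit Gins2, Plk1 and Fgf21.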

Other observations

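Of 14 tested stellate cell and fibroblast markers 4 rose in restricted mutants (28.6%, against 9.38% of all genes), Col1a1, Col1a2, Col3a1 and Rgs5. However, 0 passed without mutant replicate 2 or without mutant replicate 3, and 2 without wild-type replicate 1. The collagen gene Col1a2 averaged 19.8 ± 6.09 CPM in mutants and 10.6 ± 3.90 CPM in wild types (SD, n = 4 each, log2 0.91, adjusted p = 0.0205 by edgeR), and Col3a1 18.1 ± 5.11 and 8.24 ± 3.90 CPM (adjusted p = 0.0278). The summed level of these markers overlapped, at 690.1 to 939.9 CPM in mutants and 525 to 1020.4 CPM in wild types. Of 14 endothelial markers 2 rose, Vwf, a clotting protein of vessel walls (log2 0.89, adjusted p = 0.00208), and Lyve1, which no longer passed in 9 of 17 alternative fits. Stab2 fell, so that 21.4% of endothelial markers passed, near the 18.2% of all genes. Their median was -0.30, and leaving out 1 library gave 1 to 7 endothelial markers.

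The shares of autophagy and lysosome genes (22.6%) and of clock genes (23.8%) that passed lay near the 18.2% of all genes. Ctsl, a lysosomal protease, averaged 1298 ± 341 CPM in mutants and 397 ± 77.1 CPM in wild types (log2 1.71, adjusted p = 7.17e-07), and Hexa rose by 1.09 (adjusted p = 9.69e-05), while 4 of 31 autophagy and lysosome genes rose in all and 3 fell (median -0.04). Of 21 clock genes 4 fell and 1 rose: the repressor gene Per2 averaged 19.1 ± 4.88 CPM in mutants and 41.2 ± 18.2 CPM in wild types (log2 -1.11, adjusted p = 0.00115), and Bhlhe40 and Hlf fell by 0.98 and 0.93. The difference between the diets did not pass for Per2 (adjusted p = 0.0531). Of 28 complement genes 7 rose and 5 fell (42.9%), and 7 in all passed without mutant replicate 2. Among the genes that rose was C9 of the membrane attack complex, at 295 ± 57.9 CPM in mutants and 121 ± 24.5 CPM in wild types (log2 1.29, adjusted p = 0.000106). Of 23 tested iron genes 2 fell and 1, Ncoa4, rose (13%, below the 18.2% of all genes, median 0.05). The iron exporter gene Slc40a1 fell by 0.71 (adjusted p = 0.00735) and Hamp2, a hepcidin copy, by 1.02 (adjusted p = 0.0166). Of 76 nuclear-encoded respiratory chain genes 6 rose and 7 fell (17.1%, near the 18.2% of all genes). With scaling by library totals alone 9 rose and 1 fell.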
